A study of Mus musculus with 4 samples.

Results

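Of 39843 accessible regions found by ATAC-seq in sorted palatal mesenchyme, 1369 were open in every library and lay within 1 kb of an end of 2 or more different protein-coding genes. ATAC-seq uses a transposase to insert sequencing adapters into open DNA, and a peak marks a stretch with many insertions. Peaks of the 4 libraries were joined into a region where they shared at least 1 bp. A region was kept when each library held a peak in it, when its midpoint lay within 1 kb of a start or end of at least 2 genes, and when it was narrower than 2000 bp. The kept regions were thus chosen by the calls and the width in these same libraries. They were 1369 of the 18904 regions shared by all 4 libraries and of the 9628 shared regions within 1 kb of any gene end. A further 63 shared regions at 2 or more genes were left out by the width limit. The members touched 2714 of 21631 protein-coding genes, and 76 genes stood at more than 1 member. A peak that lies this close to 2 genes cannot be assigned to one of them from its position.

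Cells were green fluorescent palatal mesenchyme of mouse embryos at E14.5, and 50000 sorted cells were pooled per group. The 2 control libraries were Shox2Cre/+;Nkx2.5F/F;R26RmTmG and the 2 mutant libraries Shox2Cre/-;Nkx2.5F/F;R26RmTmG. Cre sits in the Shox2 locus and switches on the fluorescent reporter where Shox2 is or was active, so the controls kept 1 intact Shox2 allele and the mutants none. All embryos also carried 2 floxed Nkx2-5 alleles, which Cre can cut, so neither group was wild type. Whether the libraries within a genotype came from separate pools of embryos is not stated, and the spread between them may be technical.

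Divergent promoters are places where 2 neighbouring genes on opposite strands start close together and are read away from each other from one open stretch of DNA. In mammals they are common, often lie in CpG islands and often serve genes that every cell uses, such as those of DNA repair, mitochondria and protein folding. Genes that pattern a tissue more often start alone, with distant enhancers. A nucleosome-depleted stretch at such a promoter gives an ATAC-seq peak that belongs to both genes.

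All of the 10 textbook divergent pairs listed were members, among them Surf1/Surf2, Hspd1/Hspe1, Atm/Npat, Mcm4/Prkdc, Ppat/Paics, Gart/Son, Col4a1/Col4a2, Tap1/Psmb9 and Mrps12/Sars2. The sequences below come from the 8 pairs for which the RefSeq promoter table (GRCm38.p6, the build also called mm10) has both genes. Each is the promoter of the plus-strand gene, 250 bases before to 50 after its start, read on the plus strand, so that the start is base 251. The windows are Surf2 at chr2:26916158-26916457, Hspe1 at chr1:55087898-55088197, Npat at chr9:53536797-53537096, Paics at chr5:76951052-76951351, Son at chr16:91647574-91647873, Col4a2 at chr8:11312555-11312854, Tap1 at chr17:34187306-34187605, Sars2 at chr7:28741718-28742017. Each window covers only part of its region, and some summits lie outside it. Counted from the first base of the 300-base Paics window, summits were at 369 and 164 in controls against 397 and 355 in mutants. Capitals mark matches to any of 9 short motifs on either strand, which are spelled out with the motif results.
Surf2: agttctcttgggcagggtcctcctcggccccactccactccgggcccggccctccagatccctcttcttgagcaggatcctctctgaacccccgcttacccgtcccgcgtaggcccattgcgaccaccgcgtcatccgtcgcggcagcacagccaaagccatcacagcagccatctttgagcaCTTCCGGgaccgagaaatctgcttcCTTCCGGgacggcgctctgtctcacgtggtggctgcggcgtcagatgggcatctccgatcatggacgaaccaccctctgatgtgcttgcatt
Hspe1: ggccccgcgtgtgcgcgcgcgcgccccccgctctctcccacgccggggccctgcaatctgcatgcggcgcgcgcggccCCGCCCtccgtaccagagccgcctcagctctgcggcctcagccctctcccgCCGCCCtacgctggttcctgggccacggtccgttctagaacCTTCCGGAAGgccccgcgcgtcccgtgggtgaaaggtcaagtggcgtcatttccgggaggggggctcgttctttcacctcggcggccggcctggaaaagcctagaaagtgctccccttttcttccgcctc
Npat: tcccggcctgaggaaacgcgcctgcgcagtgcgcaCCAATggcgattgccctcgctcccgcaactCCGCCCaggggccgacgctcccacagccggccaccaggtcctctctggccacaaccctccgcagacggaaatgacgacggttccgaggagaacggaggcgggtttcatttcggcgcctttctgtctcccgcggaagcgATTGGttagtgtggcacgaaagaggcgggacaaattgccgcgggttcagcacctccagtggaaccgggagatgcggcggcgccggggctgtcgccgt
Paics: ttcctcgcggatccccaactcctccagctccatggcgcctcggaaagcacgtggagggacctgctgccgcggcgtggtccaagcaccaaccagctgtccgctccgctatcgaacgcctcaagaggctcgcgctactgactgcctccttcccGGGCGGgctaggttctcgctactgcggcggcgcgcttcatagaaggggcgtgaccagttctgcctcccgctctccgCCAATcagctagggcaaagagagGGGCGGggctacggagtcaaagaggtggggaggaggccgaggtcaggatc
Son: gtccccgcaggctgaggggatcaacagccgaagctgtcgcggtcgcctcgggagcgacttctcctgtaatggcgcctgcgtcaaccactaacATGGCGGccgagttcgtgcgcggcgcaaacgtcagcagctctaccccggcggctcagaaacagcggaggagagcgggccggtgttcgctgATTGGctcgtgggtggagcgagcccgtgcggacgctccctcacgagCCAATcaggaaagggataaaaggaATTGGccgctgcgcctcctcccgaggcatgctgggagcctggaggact
Col4a2: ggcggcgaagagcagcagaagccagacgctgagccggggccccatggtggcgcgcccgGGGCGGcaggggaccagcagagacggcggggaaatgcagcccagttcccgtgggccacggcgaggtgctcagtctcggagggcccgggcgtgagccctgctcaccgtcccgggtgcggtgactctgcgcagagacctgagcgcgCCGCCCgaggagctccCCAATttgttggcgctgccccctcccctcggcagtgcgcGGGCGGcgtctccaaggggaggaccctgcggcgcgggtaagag
Tap1: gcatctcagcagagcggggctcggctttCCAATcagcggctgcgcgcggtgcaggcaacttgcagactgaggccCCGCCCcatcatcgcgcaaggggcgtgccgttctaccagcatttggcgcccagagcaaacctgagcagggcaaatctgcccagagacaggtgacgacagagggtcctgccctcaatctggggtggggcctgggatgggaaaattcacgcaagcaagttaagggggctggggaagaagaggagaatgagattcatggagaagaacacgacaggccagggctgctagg
Sars2: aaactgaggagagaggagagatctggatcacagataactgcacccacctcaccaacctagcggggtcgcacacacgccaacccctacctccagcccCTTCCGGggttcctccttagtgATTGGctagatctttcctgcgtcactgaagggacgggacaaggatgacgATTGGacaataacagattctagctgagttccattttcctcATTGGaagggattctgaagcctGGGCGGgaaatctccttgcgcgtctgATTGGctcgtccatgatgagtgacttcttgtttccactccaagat

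Peaks of Atm/Npat stood near the top of every list. Atm encodes a kinase of the DNA damage response and Npat a regulator of histone gene transcription. The fold enrichment in the deposited lists was 13.1 and 11.9 in controls against 12.3 and 13.3 in mutants. By the gene table the starts lie 61 bp apart, at 53536828 for Atm and 53536889 for Npat on chromosome 9. Summits, the highest points of the peaks, were at 53536840, 53536887, 53536872 and 53536881, between the starts in each of the 4 libraries. In the Npat sequence printed above, these are bases 44, 91, 76 and 85. The start used for that sequence is another RefSeq start of Npat, further into the gene.

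The other pairs differed in strength. Strength is given as a percentile, the rank of a peak by its −log10 p within its own list, with 100 for the strongest. Mcm4/Prkdc, a replication helicase subunit and the catalytic subunit of DNA-dependent protein kinase, reached 99.2 and 99.7 in controls against 99.2 and 99.5 in mutants. Paics/Ppat, enzymes of purine synthesis, stood at 94.1 and 90.2 against 95.4 and 95.3. Hspe1/Hspd1, the mitochondrial chaperonin subunits, stood at 93.0 and 89.6 against 91.8 and 91.1. In these percentiles the genotypes overlapped at Mcm4/Prkdc and Hspe1/Hspd1, while at Paics/Ppat both mutants were higher. The lists differ in length, and in such percentiles 29.1% of all shared regions were higher in both mutants and 5.61% in both controls. By rank among the shared regions alone, both controls were higher at Hspe1/Hspd1, with 88.75 and 87.34 against 87.25 and 85.06. Mcm4/Prkdc and Paics/Ppat stayed as above. At Hspe1/Hspd1 both controls had the higher fold enrichments, with 8.85 and 8.82 against 8.74 and 8.68.

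Lower in the lists were Mrps12/Sars2, a mitochondrial ribosomal protein and the mitochondrial seryl-tRNA synthetase, at 88.6 and 92.5 in controls against 89.8 and 90.4 in mutants. Gart/Son, a purine enzyme and a splicing cofactor, stood at 89.2 and 84.1 against 83.2 and 84.0. Psmb9/Tap1, the immunoproteasome subunit and peptide transporter of antigen presentation, stood at 83.3 and 82.8 against 84.4 and 85.9. At Gart/Son both controls were above both mutants, and at Mrps12/Sars2 the percentiles of the genotypes overlapped. At Psmb9/Tap1 both mutants had the higher percentiles but both controls the higher fold enrichments, with 10.2 and 9.77 against 9.35 and 9.63. By rank among the shared regions alone the genotypes overlapped at Psmb9/Tap1, with 73.3 and 79.1 against 75.9 and 76.3. All 3 ranked above the middle of every list, as did Col4a2/Col4a1, the basement membrane collagen pair, at 75.7 and 55.1 against 64.5 and 65.1. By rank among the shared regions alone, both controls were higher at Col4a2/Col4a1, with 61.2 and 45.6 against 45.3 and 41.7. Its fold enrichments overlapped, with 6.62 and 5.34 against 5.59 and 5.42. Surf2/Surf1, a ribosome biogenesis factor and an assembly factor of cytochrome oxidase, was the weakest, at 16.6 and 33.1 against 34.3 and 27.8.

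The 8 members with the highest lowest percentile over the libraries held the extreme top of each list. Aasdhppt/Kbtbd3 joined the gene of a phosphopantetheinyl transferase to that of a Kelch protein, with starts 126 bp apart. Its fold enrichments were 13.5 and 13.5 in controls against 13.7 and 13.0 in mutants. Mdh1/Wdpcp, cytosolic malate dehydrogenase and a planar polarity and cilium gene, had starts 35 bp apart and values of 14.99 and 14.53 against 14.85 and 14.36. Phtf2/Tmem60 had starts 316 bp apart and values of 12.1 and 13.0 against 12.8 and 12.5. Fold enrichments of the genotypes overlapped in these 3 pairs.

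Fpgt/Lrriq3, with the gene of a fucose salvage enzyme, had fold enrichments of 16.22 and 15.97 in controls against 15.90 and 15.67 in mutants. Qtrt2/Ccdc191, with a subunit of the enzyme that places queuosine in tRNA, had 14.47 and 14.02 against 15.80 and 14.66. Cdca2/Kctd9, with a regulator of a mitotic phosphatase, had 14.4 and 14.1 against 14.0 and 14.3. Cnga4/Fam160a2, whose first gene encodes an olfactory channel subunit, had 13.2 and 12.2 against 14.3 and 13.7. Khsrp/Slc25a41, an RNA-binding protein and a mitochondrial carrier, had 12.2 and 11.0 against 11.5 and 11.9. Its summit was at the same base in all 4 libraries (range 0 bp). In fold enrichment both controls were higher at Fpgt/Lrriq3 and both mutants at Qtrt2/Ccdc191 and Cnga4/Fam160a2, while the genotypes overlapped at the other members of this group.

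Most members with a known arrangement were gene starts facing away from, or overlapping, each other. Strand was known for both genes at 1022 of the 1337 members with exactly 2 genes. Of these, 496 (48.5%) had divergent starts with DNA between them, and 277 had starts on opposite strands that overlapped. Together these were 773 of 1022 (75.6%). In 203 (19.9%) the end of one gene stood next to the start of the next on the same strand. Only gene ends lay at 7 members, 17 had a start with an end on opposite strands, and 22 had starts on the same strand. A further 31 members stood at 3 genes and 1 at more, at the end shared by the gamma protocadherin genes on chromosome 18. Its percentiles were 60.5 and 56.3 in controls against 69.2 and 62.2 in mutants. The fold enrichments there overlapped, with 5.45 and 5.94 against 6.08 and 5.26. So did the ranks among the shared regions alone, with 37.5 and 47.1 against 52.4 and 37.3.

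Of the members at 3 genes, 3 are described as those at the most genes after the protocadherin member. LOC115486880/Rspry1/Psme3ip1 had fold enrichments of 11.95 and 10.40 in controls against 11.9 and 11.4 in mutants. Shld3/Trappc13/Trim23, which joins a shieldin subunit of DNA break repair to a vesicle tether and a ubiquitin ligase gene, had 10.9 and 9.89 against 10.4 and 10.5. Cmc4/Mtcp1/Brcc3 on chromosome X, with a subunit of a DNA repair deubiquitinase, had 16.14 and 14.30 against 15.97 and 14.54. Fold enrichments of the genotypes overlapped at each of these 3 members.

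Divergent starts lay close together, with a median distance of 95 bp (quartiles 43 and 203, range 1 to 1278). Of the 496, 257 (51.8%) were within 100 bp. Starts of the overlapping class crossed by a median of 255 bp, written as −255 bp for plus-strand minus minus-strand start. These distances use the outermost ends in the gene table. Other starts were taken from the RefSeq promoter table, those nearest the region's midpoint. With these, the 436 divergent members with both entries had a median distance of 173.5 bp. Of the 237 overlapping members with both entries, 151 (63.7%) then had divergent starts. The distances and the line between both classes thus depend on the transcript model.

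**Figure D1:**
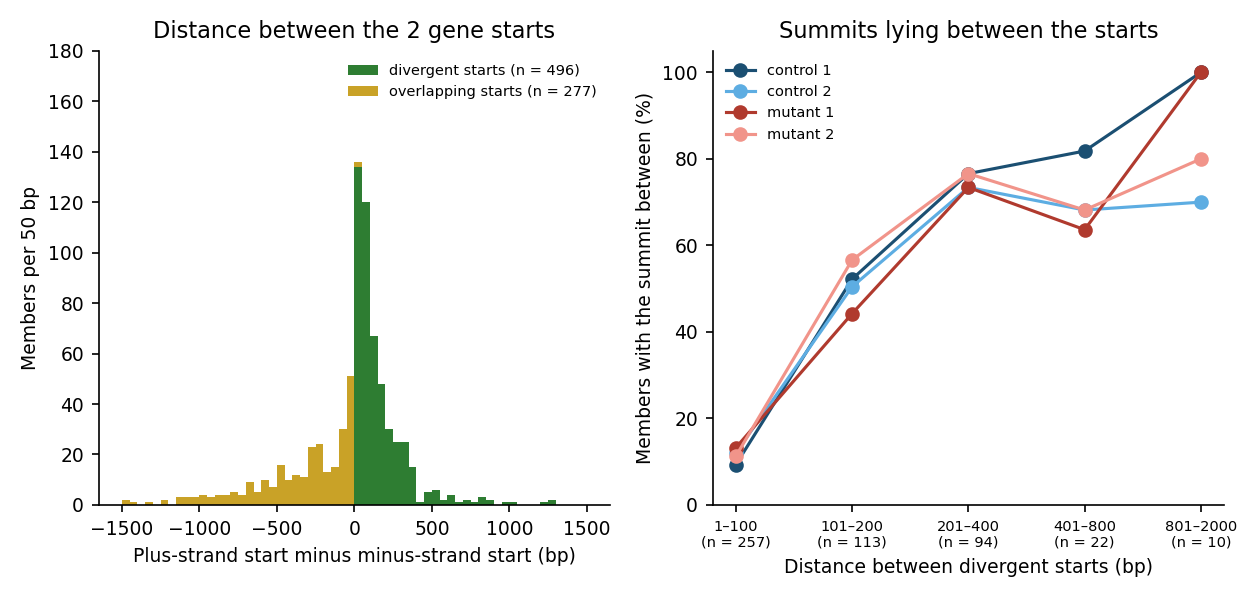
Left, number of members per 50 bp of distance between 2 gene starts on opposite strands by the gene table (plus-strand start minus minus-strand start, bp), with divergent pairs above 0 and overlapping pairs at or below 0. Right, percentage of divergent members whose summit lay between the starts, by distance, 1 line per library; it stood at 9.34% to 13.2% within 100 bp and at 73.4% to 76.6% at 201 to 400 bp.

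With the starts of the gene table, summits tended to sit just inside one of the genes when starts were close. They tended to lie between the starts when there was room. Their place was not counted with the starts of the promoter table. At distances of 1 to 100 bp the summit lay between the starts at 9.34% and 12.1% of members in controls against at 13.2% and 11.3% in mutants. At 201 to 400 bp it did so at 76.6% and 73.4% in controls against at 73.4% and 76.6% in mutants. A wider gap leaves more room for a summit, so this rise is partly fixed by the distances. Over all 496 divergent members the share was 36.9% and 36.1% in controls against 35.7% and 37.9% in mutants, and 111 (22.4%) had the summit between the starts in all 4 libraries.

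Summits of divergent members lay a median of 79 and 85.75 bp from the gap centre in controls against 82.25 and 75.25 bp in mutants. Signed along the chromosome, the median of summit minus gap centre was −6.75 and 2.25 bp in controls against −5.75 and 0 bp in mutants. This sign follows the chromosome and not a gene, so that median cannot show whether summits lean to one gene of a pair. At single gene starts the offset was signed by the direction of transcription. There the summit lay downstream of the start by a median of 45 and 50 bp in controls against 45 and 45 bp in mutants. It lay upstream at 35.7% to 36.4% of 6161 regions. For divergent pairs the median offset from the plus-strand start was −76 and −71.5 bp in controls against −76 and −70 bp in mutants, where negative values are upstream. From the minus-strand start it was −73 and −67 bp against −64 and −70.5 bp. In each pair the 2 offsets add up to minus the distance between the starts. Negative values are thus partly fixed by the arrangement and cannot be set beside those of single starts. The position of the summit differed by a median of 91 bp between the highest and lowest of the 4 libraries in members and by 93 bp in single-gene-end regions, so a single summit is not resolved more finely than this.

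Members were compared with the 7823 shared regions that met the same calls and width limit but stood at the end of exactly 1 protein-coding gene. The median percentile of members was 83.5 and 78.4 in controls against 82.6 and 83.7 in mutants. That of single-gene-end regions was 79.1 and 72.3 in controls against 78.2 and 80.03 in mutants. Members were higher in 4 of 4 libraries, by 4.67 ± 1.04 percentile points (SD, n = 4 libraries; exact two-sided sign-flip permutation p = 0.125, the smallest that 4 libraries allow). With 4 libraries no comparison of this kind can reach the usual threshold, and over the 15 such comparisons made the adjusted p was 0.134 or higher. Median fold enrichment was also higher, by 0.176 ± 0.0791 (n = 4, exact p = 0.125). Median peak width differed by 36.8 ± 2.5 bp, given as a description because the rule limits the width.

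**Figure D2:**
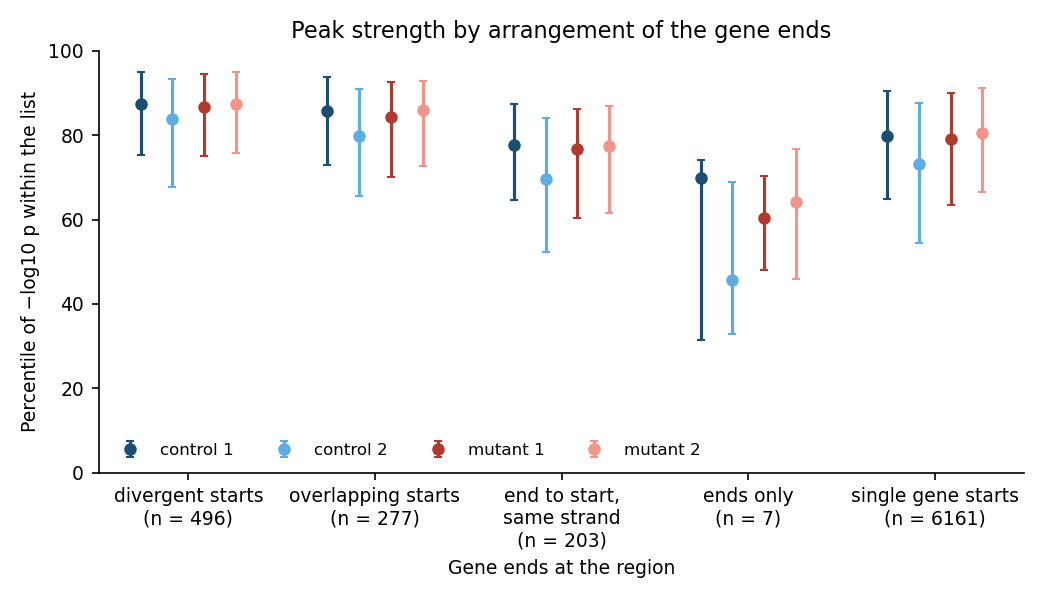
Percentile of −log10 p within each library's list (100 is the strongest peak), as medians (points) with the lower and upper quartiles (bars), for 4 arrangements of gene ends at members and for shared regions at single gene starts, with 1 colour per library. Divergent starts have the highest medians in each library (83.7 to 87.5) and end-to-start members stand lower (69.5 to 77.6).

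Divergent starts had median percentiles of 87.5 and 83.7 in controls against 86.7 and 87.3 in mutants. End-to-start members had 77.6 and 69.5 in controls against 76.6 and 77.4 in mutants. The difference was 11.0 ± 2.13 points, higher in 4 of 4 libraries (SD, n = 4, exact sign-flip p = 0.125). Peaks at divergent starts also had a higher fold enrichment, by 1.35 ± 0.0989 (n = 4, exact p = 0.125). Under the same width limit, their median widths were larger by 161 ± 11.8 bp.

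Against shared regions at 6161 single gene starts, the 2 arrangements lay on opposite sides. Divergent starts were stronger by 8.13 ± 1.62 points in 4 of 4 libraries, and end-to-start members were weaker in 4 of 4, with a difference of −2.89 ± 0.739 points (n = 4, exact p = 0.125 for both). Overlapping minus divergent starts gave −2.39 ± 1.18 points (n = 4, exact p = 0.125). Their widths differed by 32.1 ± 25.1 bp, wider in 3 of 4 libraries. The 7 members at gene ends only had median percentiles of 69.9 and 45.7 in controls against 60.5 and 64.1 in mutants.

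Values just inside and just outside the rule's limits were as follows. The widest kept member, Taz/Dnase1l1 at 1997 bp, had percentiles of 65.0 and 66.9 in controls against 63.5 and 65.4 in mutants. The narrowest region left out by width, Septin10/Sowahc at 2001 bp, had 77.9 and 81.7 against 82.2 and 81.6. Amh/Jsrp1, whose second gene was 995 bp away, had 43.8 and 17.0 against 22.8 and 45.7. Nfkbiz/Nxpe3, left out at 1000.5 bp, had 71.2 and 59.4 against 67.3 and 81.6. The weakest values of members were fold enrichments of 2.81, 2.74, 2.60 and 3.35 in the 4 libraries, and 96, 213, 101 and 85 members fell in the lower 50% of control 1, control 2, mutant 1 and mutant 2.

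Divergent starts of the whole gene table were nearly always covered by a peak. Among all 581 pairs with known strand and starts up to 1000 bp apart, 535 (92.1%) had a peak of each library between or over the starts. Of the 1154 single start positions in these pairs, 1038 (89.9%) lay under a peak in all 4 libraries, against 6923 of the 16120 other starts (42.9%). These calls are the ones that chose the members, so the shares are given as a description. No list held a peak at 31 pairs (5.34%), among them Rnf151/Rps2 and Wdr83/Wdr83os. Rps2 encodes a protein of every ribosome, so a missing entry cannot be read as closed DNA. These examples were chosen after their values were seen.

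Presence of a call separated the genotypes at few of the 581 pairs, 1 called in both controls only and 3 in both mutants only. Among the 16120 other starts these numbers were 37 and 88. Duox2/Duoxa2, a hydrogen peroxide-producing oxidase and its maturation factor, was called in both controls and in no mutant. Nbeal2/Ccdc12, the zinc finger pair Zfp942/Zfp943 and the interferon-induced pair Ifit1bl2/Ifit1 were called in both mutants and in no control. They are not members, are named because there are so few, and the lists differ in length, with 30239 and 22966 peaks in controls against 29225 and 31832 in mutants. Zfp942/Zfp943 and Ifit1bl2/Ifit1 are pairs of related genes, where reads may not map uniquely.

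Genes of mitochondria, DNA repair, chaperones and histones were frequent at members, and 1 of the genes of the palate lists stood at one. Across the 15 lists the share of genes at a member is set beside 12.5% of all protein-coding genes (2714 of 21631) and 25.1% of the 10821 genes with any shared region at an end. A gene was counted when either its start or its end lay at a member. These shares are a description, with no test. The members named for each list are up to 2 with the highest lowest percentile, so they do not stand for their list. In each library the median percentile of regions was below that of all members for mitochondrial ribosome, cytosolic ribosome, proteasome, histones, Mediator and collagens. It was above for DNA repair, DNA replication, chaperones and tRNA synthetases, and mixed over libraries for complex I and zinc finger genes. Counted only over genes with a shared region at an end, complex I stood at 57.6%, histones at 55.6%, DNA repair at 51.2%, the mitochondrial ribosome at 49.2% and chaperones at 42.9%. The tRNA synthetases stood at 38.7%, DNA replication at 33.3% and the proteasome at 30.6%. Below the 25.1% of all such genes were the cytosolic ribosome and Mediator (22.2% each), collagens (21.4%), zinc finger genes (11.7%) and palate transcription factors (5.88%).

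**Figure D3:**
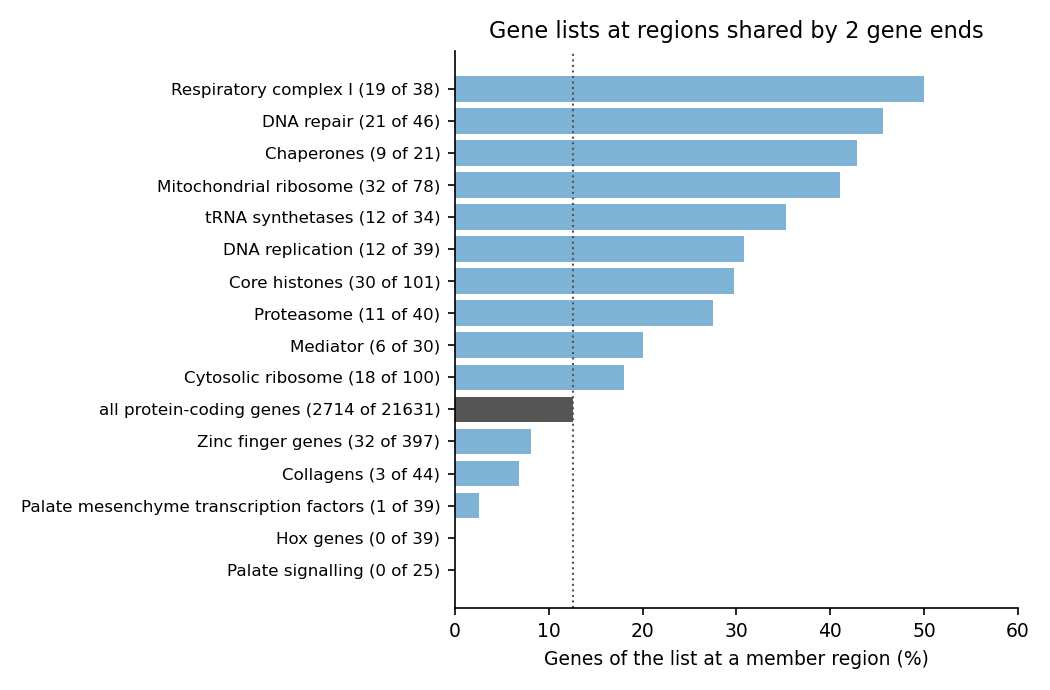
Percentage of the genes of each list that stood at a member region, with the counts beside the names; the dark bar and dotted line give all protein-coding genes (12.5%). Respiratory complex I is highest at 50%, and the palate lists hold 1 of 39 and 0 of 25 genes.

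Of 38 genes of respiratory complex I, the NADH dehydrogenase of mitochondria, 19 (50%) stood at a member. Mrpl47/Ndufb5, which joins a mitochondrial ribosomal protein to a complex I subunit with starts 302 bp apart, had fold enrichments of 11.7 and 10.1 in controls against 12.6 and 11.5 in mutants. Ndufa5/Asb15 had 11.5 and 11.3 against 10.5 and 11.3. Of 78 mitochondrial ribosome genes, 32 (41.0%) stood at a member. Their 33 regions had median percentiles of 78.9 and 69.4 in controls against 74.6 and 73.8 in mutants. All members had 83.5 and 78.4 against 82.6 and 83.7. Mrpl50/Zfp189, with starts 93 bp apart, had fold enrichments of 13.4 and 13.2 in controls against 13.3 and 12.9 in mutants. Those of Mrpl41/Pnpla7, with starts 892 bp apart, were 11.5 and 11.1 against 11.4 and 11.9. The genotypes overlapped by rank at the Ndufb5, Ndufa5 and Mrpl41 members; at Mrpl50 both controls ranked higher, by less than 1 rank percentile.

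Of 46 DNA repair genes, 21 (45.7%) stood at a member, and 13 of their 21 regions had divergent starts. Xrcc4/Tmem167, with a partner of the ligase that joins broken ends, had starts 59 bp apart. Its fold enrichments were 14.7 and 13.8 in controls against 14.8 and 15.4 in mutants. Other members of the list included Atr, Brca1, Fancd2, Fanci, Palb2 and Wrn. Of 39 DNA replication genes, 12 (30.8%) stood at a member. Rpa3/Umad1, with a subunit of the single-strand binding protein, had 14.0 and 13.0 against 15.1 and 13.4. Prkdc and Mcm4 share a member, as given above, so the repair and replication counts are not independent.

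Of 21 chaperone genes, 9 (42.9%) stood at a member. Hsp90b1/Ttc41, with the HSP90 of the endoplasmic reticulum, had fold enrichments of 10.9 and 10.2 in controls against 11.7 and 11.6 in mutants. Cct7/Pradc1, with a subunit of the cytosolic chaperonin, had 10.6 and 9.13 against 9.50 and 10.3. Of 34 tRNA synthetase genes, 12 (35.3%) did, among them Ears2/Ubfd1, with starts 1 bp apart, at 13.2 and 10.7 against 12.2 and 11.7. At Hsp90b1/Ttc41 both mutants were above both controls, and at Cct7/Pradc1 and Ears2/Ubfd1 the genotypes overlapped.

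Of 101 genes matched by symbol as histones, 30 (29.7%) stood at a member, in 16 regions, counting the linker histone H1f0. H2A and H2B genes are classically arranged as divergent pairs. H2ac12/H2bc12, with starts 178 bp apart, had fold enrichments of 11.2 and 8.74 in controls against 9.77 and 10.5 in mutants. H2ac6/H2bc4 had 9.02 and 7.97 against 9.12 and 8.78. Histone genes are near-identical copies of each other, and the treatment of reads that map to several copies is not given, so their values are uncertain. Of 40 genes with proteasome symbols, 11 (27.5%) stood at a member, counting Psmc3ip, which is not a proteasome subunit. Mrpl32/Psma2 had 13.9 and 11.2 against 12.9 and 14.2. Hykk/AY074887/Psma4 had 12.3 and 11.7 against 11.3 and 10.6, with both controls higher.

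Cytosolic ribosome symbols were at members in 18 of 100 cases (18%). The list of 100 also holds 10 S6 kinase genes, 1 of them at a member. Card6/Rpl37 had fold enrichments of 13.8 and 14.1 in controls against 15.0 and 14.1 in mutants, and Clhc1/Rps27a had 12.3 and 11.0 against 13.1 and 12.3. Both mutants had the higher folds at both members. Mediator, the coactivator of RNA polymerase, had 6 of 30 genes (20%) at a member, with Med19/Tmx2 at 14.8 and 13.8 against 14.3 and 15.7 and Med29/Paf1 at 9.69 and 9.88 against 9.95 and 11.5. Zinc finger genes of the Zfp series were below the share of all genes, with 32 of 397 (8.06%). Among these, Zfp654/Cggbp1 had 11.8 and 11.5 against 13.6 and 12.7 and Zfp277/Dock4 had 10.9 and 9.36 against 10.1 and 9.72.

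Of 39 transcription factor genes of palate mesenchyme, 17 had a shared region at a gene end and 1 (2.56%) stood at a member. This was Alx1, a homeobox gene of craniofacial mesenchyme, next to the predicted gene Gm34298. Its fold enrichments were 5.58 and 5.52 in controls against 5.54 and 5.56 in mutants, with percentiles of 68.0, 61.0, 66.9 and 66.2. None of the 25 palate signalling genes, such as Shh, Bmp4 and Wnt5a, stood at a member, while 16 had a shared region at an end. None of 39 Hox genes had a shared region within 1 kb of an end. Of 44 collagen genes, 3 stood at 2 members, the Col4a1/Col4a2 pair and Col23a1/Phykpl. The latter had fold enrichments of 8.58 and 8.12 in controls against 8.44 and 8.68 in mutants. There the end of one gene stood next to the start of the other on the same strand. The count thus does not show a peak at a start of Col23a1.

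Marker genes checked the sorted cells. Shared regions at an end were found for 5 of 8 palatal mesenchyme markers (Twist1, Osr2, Msx1, Meox2 and Col1a2), and not for Prrx1, Pdgfra and Col3a1. They were found for 2 of 6 epithelial markers (Cdh1 and Epcam), 1 of 5 endothelial, 1 of 5 blood, 0 of 5 skeletal muscle and 3 of 6 neural and glial markers. Of the last, 2 stood at members, among them Tubb3, whose neighbour is Mc1r, so that its peak is equally a peak at Mc1r. The part of other cell types in the results was not tested.

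To compare genotypes, each member was ranked among the 18904 regions shared by all 4 libraries, separately in each library, so that lists of different length do not shift the rank. The median rank of members was 73.6 and 73.8 in controls against 73.1 and 72.6 in mutants, where 100 is the strongest. Both mutants were below both controls, and the difference of the means was −0.881 (mutant minus control, 2 against 2 libraries, exact two-sided permutation p = 0.333, the smallest the design allows). Ranks of members were alike in all pairs of libraries, with Spearman's rho across members from 0.950 to 0.961, within genotypes (0.950 and 0.961) as between them (0.950 to 0.960). These correlations describe regions called in all libraries, and regions are not independent replicates.

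**Figure D4:**
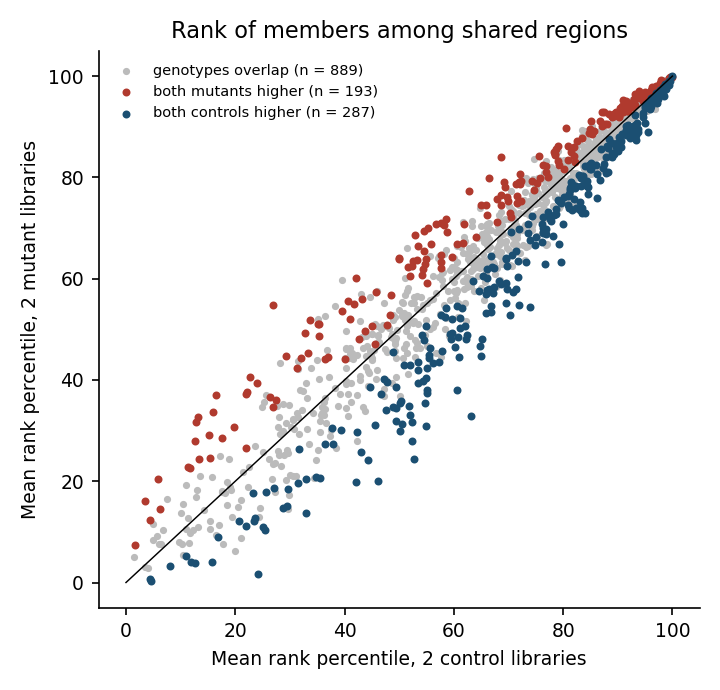
Mean rank percentile of each of the 1369 members among shared regions, in the 2 control (x) and the 2 mutant libraries (y), with the line of equality. Members ranked higher in both mutants (193) or both controls (287) lie on either side of the line, and most depart from it little.

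At most members the ranks of the genotypes overlapped. Both controls ranked higher at 287 members (21.0%), against 18% of all shared regions. Both mutants ranked higher at 193 members (14.1%), against 17.6% of all shared regions. For single-gene-end regions the shares were 18.3% and 16.4%. The shares of members are within a few percentage points of this background, and no test of the difference was made because regions are not replicates. Gaps were small, with a median of 1.84 rank percentiles where controls were higher and 1.76 where mutants were. A gap over 10 was seen at 23 and 9 members. Ranks within the whole lists gave other counts, against 29.1% of all shared regions for mutants higher and 5.61% for controls higher; the same direction in both same-numbered pairs was met by 25.9% and 26.4%.

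The widest gap with controls higher was at Trex1/Atrip, a cytosolic DNA exonuclease and the partner of the ATR kinase (chromosome 9, 109058941 to 109060098). Its ranks were 56.3 and 70.0 in controls against 33.0 and 32.9 in mutants, and its fold enrichments 6.88 and 7.79 against 5.35 and 5.24. Deaf1/Eps8l2, a transcription factor and a regulator of actin (chromosome 7, 141338464 to 141339314), ranked at 21.8 and 26.6 against 2.68 and 0.524, with fold enrichments of 6.84 and 6.86 against 4.48 and 4.50. Asphd1/Sez6l2 (chromosome 7, 126949432 to 126950463) ranked at 54.7 and 50.8 against 32.01 and 16.8. H2bc7/H2ac7 (chromosome 13, 23574044 to 23574686) ranked at 49.7 and 51.4 against 30.6 and 31.95. In fold enrichment the last member differed little, with 5.43 and 5.36 against 5.04 and 5.28.

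The widest gap with mutants higher was at Inca1/Kif1c, an inhibitor of cyclin-dependent kinase and a kinesin motor, with starts 111 bp apart (chromosome 11, 70699770 to 70701151). Its ranks were 15.3 and 38.7 in controls against 55.9 and 53.6 in mutants, and its fold enrichments 5.66 and 6.38 against 7.92 and 8.42. Rab24/Prelid1, an autophagy GTPase and a mitochondrial lipid transfer protein (chromosome 13, 55321375 to 55322847), ranked at 23.5 and 9.38 against 37.7 and 36.5. Drap1/AI837181, with a repressor of transcription initiation (chromosome 19, 5423942 to 5425631), ranked at 50.3 and 49.7 against 63.3 and 64.8. Cog4/Sf3b3, a Golgi tether and a splicing factor (chromosome 8, 110845992 to 110847707), ranked at 14.2 and 16.2 against 28.7 and 29.6. These 8 members were picked for their gaps, so the values describe them and test nothing.

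By gene list, the numbers with non-overlapping ranks were small on both sides. Mitochondrial ribosome genes had 10 members with controls higher and 5 with mutants higher, of 33. Complex I had 5 and 2 of 20, and DNA repair 3 and 4 of 21. DNA replication genes had 4 and 0 of 12, and the histones 5 and 2 of 16. In the same order, the cytosolic ribosome had 4 and 5 of 20, the proteasome 2 and 2 of 11 and tRNA synthetases 1 and 1 of 11. Zinc finger genes had 3 and 2 of 28, chaperones 3 and 1 of 9, Mediator 1 and 0 of 6 and collagens 1 and 0 of 2. The background over all shared regions is 18% with controls higher and 17.6% with mutants higher. Over all members it is 21.0% and 14.1%.

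Promoter sequences of members had a higher median CpG ratio than those of shared regions at 1 gene, except at end-to-start members. Of the 2714 member genes, 2263 had an entry in the RefSeq table, and 1909 promoters started within 1 kb of a member's midpoint. Median G+C was 62.3% in members and 62.3% in single-gene-end regions, against 56.7% in all 21045 protein-coding promoters of the table. The CpG ratio, observed over expected from the bases, had a median of 0.848 in members, 0.765 in the end-to-start members among them, 0.788 in single-gene-end regions and 0.574 in all promoters. It was above 0.6 in 92.2% of promoters at divergent starts, 79.3% at end-to-start members, 78.5% at single-gene ends and 48.1% of all.

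**Figure D5:**
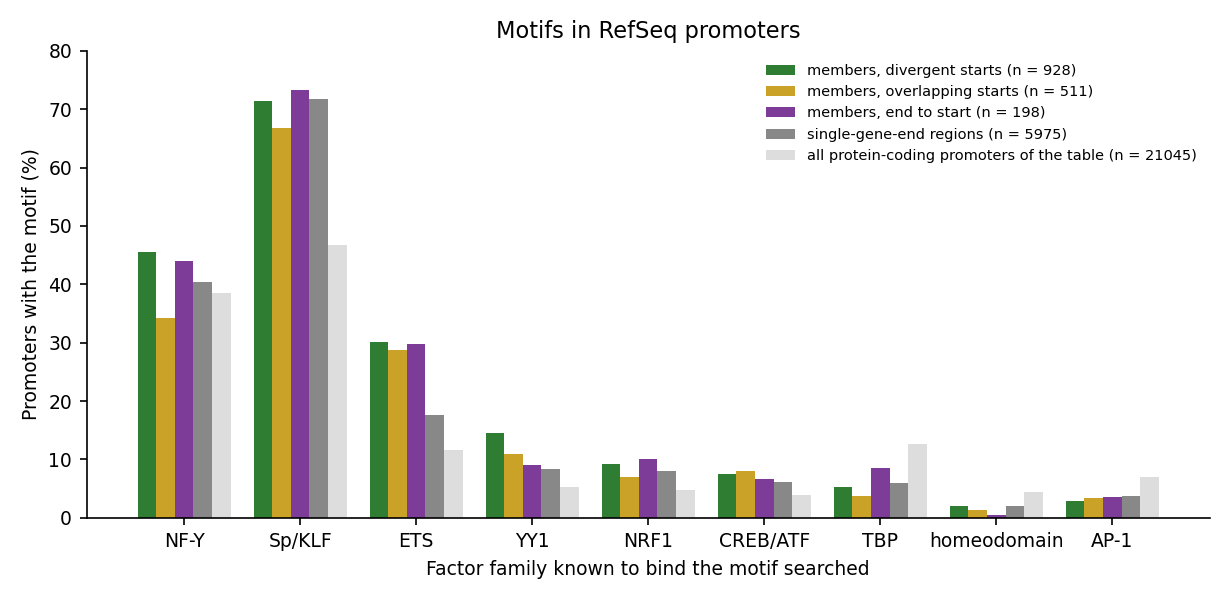
Percentage of 300-base RefSeq promoters with at least 1 match, on either strand, to a short motif of each factor family, for 3 arrangements of members, single-gene-end regions and all protein-coding promoters. The ETS motif stands at 28.8% to 30.2% in the 3 member groups, against 17.7% at single-gene ends and 11.7% of all promoters.

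The 9 motifs were searched on both strands of each 300-base promoter, and a match is a description of letters and not of binding. The ETS motif CCGGAAG was in 29.2% of member promoters, 17.7% of those at single-gene ends and 11.7% of all. The YY1 motif ATGGCGG was in 12.4%, 8.30% and 5.29%. In the sequences printed above, CCGGAAG or its complement occurs in Surf2 with 2 matches, Hspe1 with 2, overlapping each other, and Sars2 with 1. The motif GGGCGG, bound by Sp and KLF factors, was in 69.6% of member promoters and 71.8% of those at single-gene ends, against 46.7% of all. The CCAAT motif, bound by NF-Y, was in 41.7%, 40.4% and 38.5%. Within members it was in 45.5% of promoters at divergent starts, 43.9% at end-to-start members and 34.2% at overlapping starts.

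NRF1 and CREB/ATF motifs were more frequent at members than in all promoters, while TATA, homeodomain and AP-1 motifs were less frequent. The NRF1 motif GCGCATG was in 8.28% of member promoters, 7.98% of those at single-gene ends and 4.84% of all, and the CREB/ATF motif TGACGTC in 7.54%, 6.14% and 3.88%. TATAAA, the TATA box, was in 5.08%, 5.99% and 12.7%. The homeodomain motif TAATTA, of the kind read by factors such as Shox2, was in 1.62%, 2.04% and 4.47%. The AP-1 motif TGANTCA was in 3.14%, 3.80% and 7.04%. Promoters of a pair often overlap, so 1 match can count for both genes.

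Among the 436 divergent members with both promoters in the table, those with a CCAAT motif had stronger peaks. The median percentile was 91.4 and 88.2 in controls against 91.1 and 90.8 in mutants for 234 members with the motif. For the 202 without it, it was 82.1 and 77.5 in controls against 82.0 and 81.5 in mutants. The difference was 9.61 ± 0.768 points, higher in 4 of 4 libraries (SD, n = 4, exact sign-flip p = 0.125, adjusted p = 0.161 over the 9 motifs). At single-gene-end regions it was 8.96 ± 1.17, so a difference of that size was also seen there. GGGCGG gave 5.41 ± 1.27 (n = 4, exact p = 0.125, adjusted p = 0.161), and 5.37 at single-gene ends.

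ETS and YY1 motifs, more frequent at members as a whole, did not go with stronger peaks at the divergent members scored here. Members of other arrangements were not scored. With CCGGAAG the difference was −0.0824 ± 0.899 points, higher in 2 of 4 libraries (n = 4, exact sign-flip p = 1, adjusted p = 1), while at single-gene ends it was 4.22. With ATGGCGG it was −4.32 ± 0.794, lower in 4 of 4 libraries (n = 4, exact p = 0.125, adjusted p = 0.161), against 2.10 at single-gene ends. With TGACGTC it was −4.64 ± 1.45, also lower in 4 of 4 (n = 4, exact p = 0.125, adjusted p = 0.161), against 3.03. The difference between divergent members and single-gene ends was not tested, and divergent members were scored over 2 promoters but single-gene ends over 1.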

How the data were processed

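Peaks were deposited by the authors as 1 list per library in the 10 columns of the narrowPeak layout, without a header; the build is mm10, per the submitters' processing notes. The peak names show 1 merged alignment file per library; what was merged, how reads were aligned and shifted for the transposase, which caller was run and how numbered peaks were later removed is not given in the labels or files used here. Each deposited peak has a fold enrichment (a ratio to a background not given), a −log10 p-value and −log10 q-value, a score that is the whole part of 10 times the −log10 p in nearly all rows, and a summit offset. All are values of the authors and served here to describe and rank peaks. Lists hold 22966 to 31832 peaks; read depth is unknown and no interval for counting error is given.

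Regions were built from peaks of chromosomes 1 to 19 and X with Python 3.11.15 and pandas 2.3.3. Where a library had several peaks in a region, the one with the highest −log10 p gave its values and the widest its width. Gene ends came from a GRCm38.p6 table of 21631 protein-coding genes, and strand from the RefSeq promoter table for 17274 of them. Differences between sets of regions were taken within each library and tested by exact sign flips over the 4 libraries; the genotype difference was tested by exact permutation of the 4 libraries. The scripts were tested on simulated peaks. Members, lists and tests were chosen with earlier results of these data known. Named are the 10 textbook pairs, the 8 members with the highest lowest percentile, and 4 per direction with the widest rank gap. Also named are up to 2 per list with the highest lowest percentile, and the 4 at the most genes. Sequences shown are the plus-strand gene of each textbook pair with both entries. Some genes that this rule names are not reported here.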

Additional observations from a re-analysis of the deposited data

How the results depend on the processing

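The number of members ran from 1050 (window of 500 bp) to 1830 (window of 2 kb) over 7 alternatives and from 1383 to 1399 with 1 library left out. The percentile difference from single-gene-end regions stayed positive, from 1.68 (ranked by fold enrichment) to 5.99, and from 4.95 to 5.18 with 1 library left out. The width difference stayed positive, from 10.3 bp (window of 2 kb) to 58.5 bp, and from 37.3 to 40.7 bp with 1 library left out. Divergent minus end-to-start strength, a comparison added after the data were seen, ran from 7.18 (upper 50% of each list) to 12.6, and from 11.0 to 11.7 with 1 library left out.

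Genotype counts depended on the ranking. Ranked within the whole lists, which differ in length, 368 members were higher in both mutants and 90 in both controls, against 29.1% and 5.61% of all shared regions, and the median rank difference turned to 2.18. It was −2.26 by fold enrichment, where the counts were 222 and 246 (17.4% and 17.4% of all shared regions), and ran from −1.21 to −0.507 with 1 library left out. With a replicate block, that is the same direction in both same-numbered pairs, 315 members were higher in mutants and 414 in controls, against 25.9% and 26.4% of all shared regions, and the median rank difference was the same, −0.881. The labels do not say that numbers pair libraries, and the deviations of same-numbered libraries from their genotype means correlated at 0.0274. With 1 library left out the lone library is set against both others, and the counts were 362 to 436 for mutants higher and 469 to 546 for controls higher, by construction. Read depth limits every call and is unknown.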
